A study of Rattus norvegicus with 2 samples.

Results

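The genes described here carry the signal of insulin and insulin-like growth factor 1 (IGF1) from the cell surface to AKT, mTOR and GSK3. They are the receptors Igf1r and Insr, the adaptors Irs1 and Irs2, the lipid kinase subunit Pik3r1, the kinases Akt1, Akt2 and Mtor, and the kinase Gsk3b. Every peak that the authors' annotation names for one of these 9 genes was taken, of whatever class. This gave 23 of the 28706 peaks in the deposited list, named for 7 of the 9 genes. Irs1 and Mtor had no peak by name.

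The peaks come from chromatin immunoprecipitation with sequencing (ChIP-seq) of rat myocardium. Male Wistar rats had abdominal aortic constriction, in which the vessel is tied together with a 0.7 mm wire above the renal arteries, so that the heart pumps against a higher pressure. The antibody is given by vendor and catalogue number, and its target was taken to be lactylation of lysine 18 of histone H3, the mark named in the series title. Values of 1 ChIP library were analysed and none of unoperated rats, so no groups were compared and no value has a replicate error. How many animals gave the chromatin is not given in the labels.

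When insulin or IGF1 binds its receptor, the receptor phosphorylates adaptors of the IRS family, which recruit phosphoinositide 3-kinase (PI3-kinase). The lipid it makes draws AKT to the membrane, where AKT is activated. AKT inhibits GSK3, which restrains growth and glycogen synthesis, and relieves the inhibition of mTOR, which drives protein synthesis. In the heart the IGF1 receptor branch is known for physiological growth, and GSK3β as a brake on hypertrophy.

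Whole myocardium was used, so a peak sums over all its cell types, and fewer cells with a mark and less mark per cell cannot be told apart. Of 12 cardiomyocyte markers, 8 had a peak (Myh7, Tnnt2, Tnni3, Actc1, Pln, Nkx2-5, Gata4 and Mybpc3), and Myh6, Ryr2, Ttn and Tbx5 had none by name. Of 6 endothelial markers, 5 had a peak, against 1 of 5 fibroblast, 1 of 4 hepatocyte, 1 of 4 brain and 0 of 4 skeletal muscle markers. Of all coding genes, 26.5% had a peak, so counts of 1 of 5 and 1 of 4 lie near that share. With so few markers, these counts do not tell which cells were present. Sequencing depth is unknown, since the list gives no library totals, so where a peak is missing, the call at q 0.05 found none in this library.

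Promoter sequences are shown for the 3 members whose RefSeq window lay fully outside the span of their gene, 1 with a promoter peak and 2 with no peak by name. They are the 250 bases before the start of the gene in assembly GRCr8, written 5′ to 3′ on the gene's strand. Capitals mark GGGCGG or its reverse complement CCGCCC, the GC box that the factor SP1 binds.
Pik3r1 (chr2:34697661-34697910, minus strand): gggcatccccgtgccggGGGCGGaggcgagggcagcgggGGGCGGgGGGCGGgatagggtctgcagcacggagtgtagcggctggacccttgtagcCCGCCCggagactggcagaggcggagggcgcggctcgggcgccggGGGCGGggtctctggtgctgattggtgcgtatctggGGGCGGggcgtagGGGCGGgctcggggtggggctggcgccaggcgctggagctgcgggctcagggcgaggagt
Irs1 (chr9:91053960-91054209, minus strand): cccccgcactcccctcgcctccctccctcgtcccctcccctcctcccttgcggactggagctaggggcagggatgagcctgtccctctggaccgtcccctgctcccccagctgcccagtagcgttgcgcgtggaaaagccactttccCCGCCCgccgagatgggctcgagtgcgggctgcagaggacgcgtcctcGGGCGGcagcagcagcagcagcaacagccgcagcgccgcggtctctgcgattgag
Mtor (chr5:164167735-164167984, plus strand): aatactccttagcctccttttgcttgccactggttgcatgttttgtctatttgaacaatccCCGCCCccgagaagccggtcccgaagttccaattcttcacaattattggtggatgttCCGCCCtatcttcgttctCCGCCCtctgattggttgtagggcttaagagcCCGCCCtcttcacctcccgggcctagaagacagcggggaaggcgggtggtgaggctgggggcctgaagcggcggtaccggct
The peaks are on the older build rn6, so they cannot be laid over these bases. Of the 9 members, 8 had a window in the RefSeq table. For the other 5 of these 8, the start used by the table lay inside the gene's own span, so their windows are not shown.

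The GC box was present in all 3 windows, 7 times in that of Pik3r1, 2 times in that of Irs1 and 4 times in that of Mtor. In the 5 windows not shown it was found 1 time for Igf1r and 0 times for Insr, Akt1, Akt2 and Gsk3b. The GC box was found on either strand in 40.3% of the 19005 windows of coding genes in the table. The share was 65.0% of the 1845 windows of genes with a promoter peak and 37.7% of the 17160 windows of genes without. GC content was 77.2% for Pik3r1, 70.8% for Irs1 and 56.8% for Mtor, against a median of 54.8% over all coding windows. The ratio of observed to expected CpG was 0.846, 0.722 and 0.696 for the same 3 genes, against a median of 0.523. The windows without a peak by name thus also held GC boxes, and their CpG ratios were above that median. These backgrounds are not limited to windows like the 3 shown: 10965 of the 19005 lay outside the span of their gene. None of the 3 held the E-box CACGTG (6.38% of windows), the forkhead core GTAAACA (2.98%), the TATA box TATAAA (12.3%) or the core of the glucocorticoid receptor site AGAACA (15.0%), each searched on both strands.

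Most members carried a peak, and most of the members with one had it at or near a transcription start site (TSS). A peak of any class was named for 7 of 9 members (77.8%, 95% Clopper-Pearson interval 40.0 to 97.2%), and the background was 26.5% of 23154 coding genes. A promoter-TSS peak, the annotation's class for peaks at a start site, was present at 4 of 9 (44.4%, 13.7 to 78.8%), where the background was 9.68%. These 4 were Igf1r, Irs2, Pik3r1 and Gsk3b, and with −log10 q of at least 5 only Gsk3b was left, where the background was 4.15%. When any peak centred at most 1000 bp from a TSS was counted, there were 5 of 9 (55.6%, 21.2 to 86.3%), with Insr added, and the background was 16.7%. At the stricter q this count was 3, and the background was 7.89%. The intervals are wide, they cover counting error only, and the background is not limited to genes active in the heart. With older gene symbols matched as well, the background with any peak was 27.1%. Of the 8094 gene names in the annotation, 6224 were current symbols, while all 9 members are in the gene table. A coding gene that the annotation names otherwise counts as without a peak, so these backgrounds may be too low.

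Among the 23 peaks, 6 were of class promoter-TSS (26.1%, 10.2 to 48.4%), against 9.78% of all peaks. Introns held 12 (52.2%, 30.6 to 73.2%), against 43.8% of all peaks. Intergenic sequence held 5 (21.7%, 7.46 to 43.7%), against 41.1%. No member peak was classed as exon or transcription termination site (0 of 23, with an exact upper limit of 14.8%), against 3.54% and 1.67% of all peaks. Within 1000 bp of a TSS lay 8 of the 23 (34.8%, 16.4 to 57.3%), against 19.4% of all peaks. The class shares lean on 1 gene, since 12 of the 23 peaks, 10 of them in introns, were named for Pik3r1.

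In strength the member peaks lay near the middle of the list. Fold enrichment, the authors' ratio of a peak's signal to the caller's local background, had a median of 4.51 over the 23 (quartiles 3.76 and 4.96, range 3.05 to 6.97), against 4.13 over all peaks (quartiles 3.62 and 4.79). Without Pik3r1 the median of the other 11 was 4.78. The median −log10 q, the caller's error rate on a log scale, was 4.65, against 3.89. A fold enrichment of at least 6 was reached by 2 of the 23, those of Insr and Akt2, and the background was 6.31% of peaks. The median width was 345 bp, against 375 bp. Taking the strongest peak of each gene, the median was 5.11 over the 7 members with a peak, against 4.63 over the 6132 coding genes with one. The values come in steps: 22 of the 23 member peaks had a pair of fold and q that at least 1 other peak of the list also had, and 1 such pair was shared by 412 peaks.

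**Figure D1:**
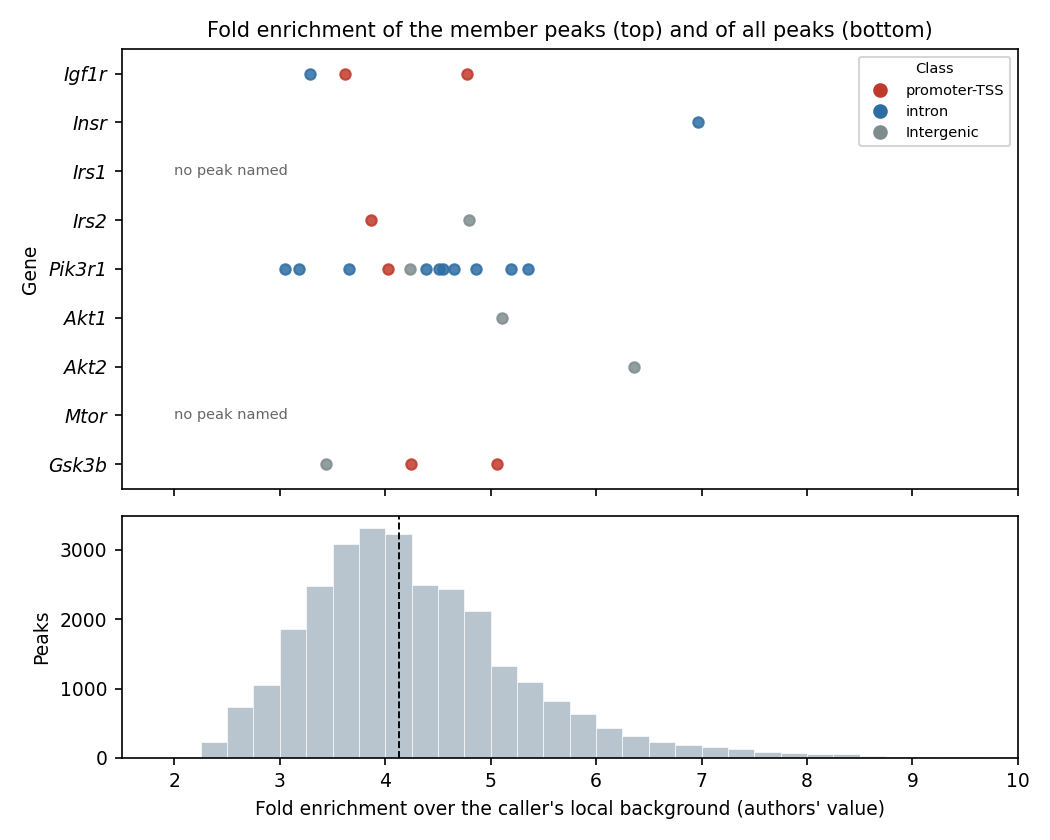
Fold enrichment of each peak named for the 9 genes (top, 1 point per peak, coloured by class) above the histogram of fold enrichment over all 28706 peaks (bottom, x axis shared and shown to 10, dashed line at the median of 4.13). Insr at 6.97 and Akt2 at 6.36 stand to the right of the other member peaks, and Irs1 and Mtor have no peak by name.

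Of the receptors, Insr had 1 strong peak and Igf1r had weaker peaks at its start site. Insr encodes the insulin receptor. Its only peak had 6.97-fold enrichment and a −log10 q of 9.61 (chromosome 12, 1815512 to 1816345, rn6), the strongest of the 23. It ranked 674 of 28706, so 2.35% of all peaks were at least as strong. Among coding genes with a peak, 6.47% had a strongest peak of at least this fold. The annotation places it in intron 3 of a transcript with 23 introns, and at the same time 486 bp downstream of the TSS of another transcript of Insr. It spanned 834 bp.

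Igf1r encodes the IGF1 receptor. A promoter peak of 4.78-fold was centred 13 bp upstream of the TSS (chromosome 1, 128924791 to 128925115, −log10 q 4.33). A second promoter peak of 3.62-fold lay 559 bp upstream (128924304 to 128924511, −log10 q 3.89). The weakest, of 3.29-fold, lay 2350 bp downstream in intron 1 (128927175 to 128927458, −log10 q 1.81). The strongest of these 3 ranked 7465 of 28706, with 26.1% of peaks at least as strong. Set against the strongest peak of each coding gene with one, 45.8% reached at least 4.78-fold.

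The peaks named for Igf1r were not all that its transcript held. A further 9 peaks lay in intron 2 of the same Igf1r transcript, but the annotation names them for a 5S_rRNA gene model, whose TSS is the nearest. They spread over 36.6 kb, with centres from 99.21 to 135.4 kb downstream of the Igf1r TSS, and their fold enrichment ran from 2.95 to 8.81 with a median of 3.81. The strongest, 8.81-fold with a −log10 q of 13.2 (chromosome 1, 129039019 to 129039506), ranked 86 of 28706, above every peak named for a member. The next were 5.61-fold (129023955 to 129024402) and 5.26-fold (129039888 to 129040283). Of the 9, 4 reached a fold enrichment of 4, and 55.5% of all peaks did. With these counted, Igf1r had 12 peaks, as many as Pik3r1 by name, and the members had 32 peaks with a median of 4.45-fold. This count was chosen after the values were seen. In the whole list, 2067 of the 12034 intron and exon peaks whose host transcript the annotation pairs with a gene name (17.2%) were named for a gene other than that host.

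Of the adaptors, Irs2 was marked at its start site and Irs1 had no peak. Irs1 and Irs2 encode the insulin receptor substrates, the docking proteins between the receptors and PI3-kinase. Irs2 had a promoter peak of 3.86-fold centred 13 bp upstream of the TSS (chromosome 16, 83824298 to 83824536, −log10 q 3.45). A stronger peak of 4.79-fold lay 1011 bp upstream and was classed as intergenic (83823225 to 83823614, −log10 q 5.34), just outside the 1000 bp window. No peak carried the name of Irs1. Of its next coding neighbours in the gene table, Nyap2 on one side had no peak and Rhbdd1 on the other had 2, a promoter peak of 4.37-fold and an intron 1 peak of 3.26-fold.

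Pik3r1 had the most peaks of the members, spread over the length of the gene. It encodes the regulatory subunit p85α of PI3-kinase and, from inner start sites, shorter forms of it. Its 12 peaks spanned 84.3 kb and covered 5863 bp, and 5.17% of the 6132 coding genes with a peak had at least as many. The 3 strongest were in introns. A peak of 5.35-fold lay in intron 2, 29.9 kb downstream of the outer TSS (chromosome 2, 31796398 to 31797535, −log10 q 6.19), and at 1138 bp it was also the widest. A peak of 5.19-fold lay 689 bp downstream, in intron 1 (31825670 to 31826687), and had the highest −log10 q of the gene, 9.57. A peak of 4.86-fold lay in intron 7 (31759848 to 31760331, −log10 q 5.44). The peak nearest to a TSS was the promoter peak, 338 bp upstream of the outer one, with 4.03-fold (31827030 to 31827380, −log10 q 3.72). The outer start site was thus flanked by a peak on each side, and the downstream one was the stronger.

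The other Pik3r1 peaks ran from 3.05 to 4.65-fold. In all, intron 2 held 5 of the 12 peaks and intron 7 held 3. The annotation measured 9 of the 12 from an inner TSS, 73.3 kb downstream of the outer one. The 3 intron 7 peaks lay 1519, 4964 and 6561 bp upstream of that inner TSS, at 4.55, 4.65 and 4.86-fold. A single peak, of 4.23-fold, was classed as intergenic, 10.3 kb beyond the inner TSS. By a stated rule, the genes most like Pik3r1 in their counts of peaks over the 5 classes were Erg, Rph3al and Pde7b. Each had 11 peaks and differed by 1 peak in the summed class counts, in this 1 library. In all, 8 genes differed by 1 peak, and these 3 had the closest strongest fold, 5.38 for Erg, 5.25 for Rph3al and 5.57 for Pde7b.

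**Figure D2:**
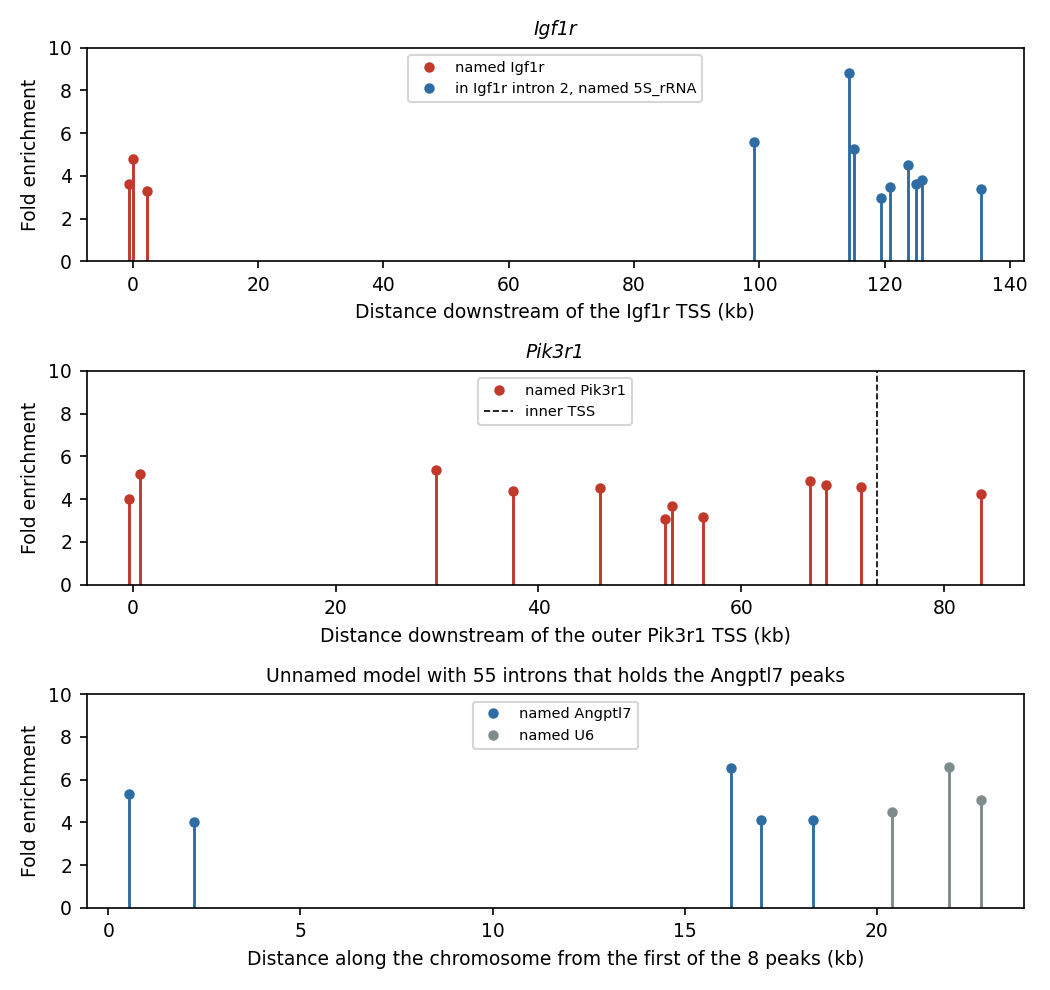
Fold enrichment of single peaks (points on stems) by position in kb along Igf1r (top), Pik3r1 (middle, dashed line at the inner TSS) and the unnamed gene model that holds the Angptl7 peaks (bottom). In Igf1r the 9 intron 2 peaks named 5S_rRNA lie about 99.21 to 135.4 kb from the TSS and reach 8.81-fold, against 4.78-fold for the peaks that carry the gene's name.

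The AKT kinases each had 1 peak, upstream of the gene and outside the promoter class. Akt1 and Akt2 encode serine/threonine kinases, of which Akt2 is known for insulin-stimulated glucose uptake. The Akt2 peak had 6.36-fold enrichment, 9980 bp upstream of the TSS (chromosome 1, 84401085 to 84402408, −log10 q 11.6). It ranked 1244 of 28706, its −log10 q was the highest of the 23, and at 1324 bp it was the widest. The Akt1 peak had 5.11-fold, 3115 bp upstream (chromosome 6, 137238739 to 137240007, −log10 q 6.39), over 1269 bp. The next peak, 2471 bp beyond it, was the promoter peak of the zinc finger gene Zbtb42, at 5.52-fold (137242479 to 137243189). The Akt1 peak thus lay between 2 genes, and its name rests on which TSS is nearer.

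Mtor, which encodes the kinase of both mTOR complexes, had no peak by name, but 8 peaks named for small genes lay in the introns of a large model without a name. In the gene table Mtor is the only other coding gene whose span contains the small gene Angptl7. In the list, the 5 Angptl7 peaks all lay in introns 27 and 33 of a larger model with 55 introns, which the annotation does not pair with a gene name. The same model held 3 more peaks, named for a U6 gene model, in introns 33 and 35. These 8 peaks spanned 22.8 kb of chromosome 5 (165323920 to 165346745), from 4.02 to 6.59-fold with a median of 4.78. The strongest were 6.59-fold in intron 35 (165345282 to 165346335, −log10 q 12.4) and 6.54-fold in intron 33 (165340022 to 165340258, −log10 q 9.32). Whether this model is Mtor cannot be read from the names in the list, so the 8 peaks were counted for no member. Exosc10, a neighbour in the table, had 1 peak, of 2.70-fold.

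Gsk3b had 3 peaks at and upstream of its start site, weaker with distance. It encodes GSK3β, the kinase that AKT inhibits. The promoter peak of 5.06-fold was centred 14 bp upstream of the TSS (chromosome 11, 65209134 to 65209430, −log10 q 7.79). The next promoter peak, 510 bp upstream, had 4.24-fold (65209607 to 65209949, −log10 q 5.94). An intergenic peak 1649 bp upstream had 3.44-fold (65210717 to 65211117, −log10 q 3.93). The gaps between the 3 were 176 and 767 bp.

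The start sites of 3 members shared a layout. Igf1r, Irs2 and Gsk3b each had a peak centred 13 or 14 bp upstream of the TSS and another further upstream. Of all 28706 peaks, 155 had a centre within 25 bp of a TSS, and 3 of these belonged to members. At Igf1r and Gsk3b the peak at the TSS was the stronger, and at Irs2 the upstream one. The layout was picked out after the values were seen. With −log10 q of at least 5, the peaks at the TSS of Igf1r (4.33) and Irs2 (3.45) were lost, and only Gsk3b kept it. The layout rests on calls that lie close together: with peaks at gaps of up to 1000 bp merged, the start-site peaks became 1 at each gene, which left Igf1r with 2 peaks and Irs2 and Gsk3b with 1 each.

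**Figure D3:**
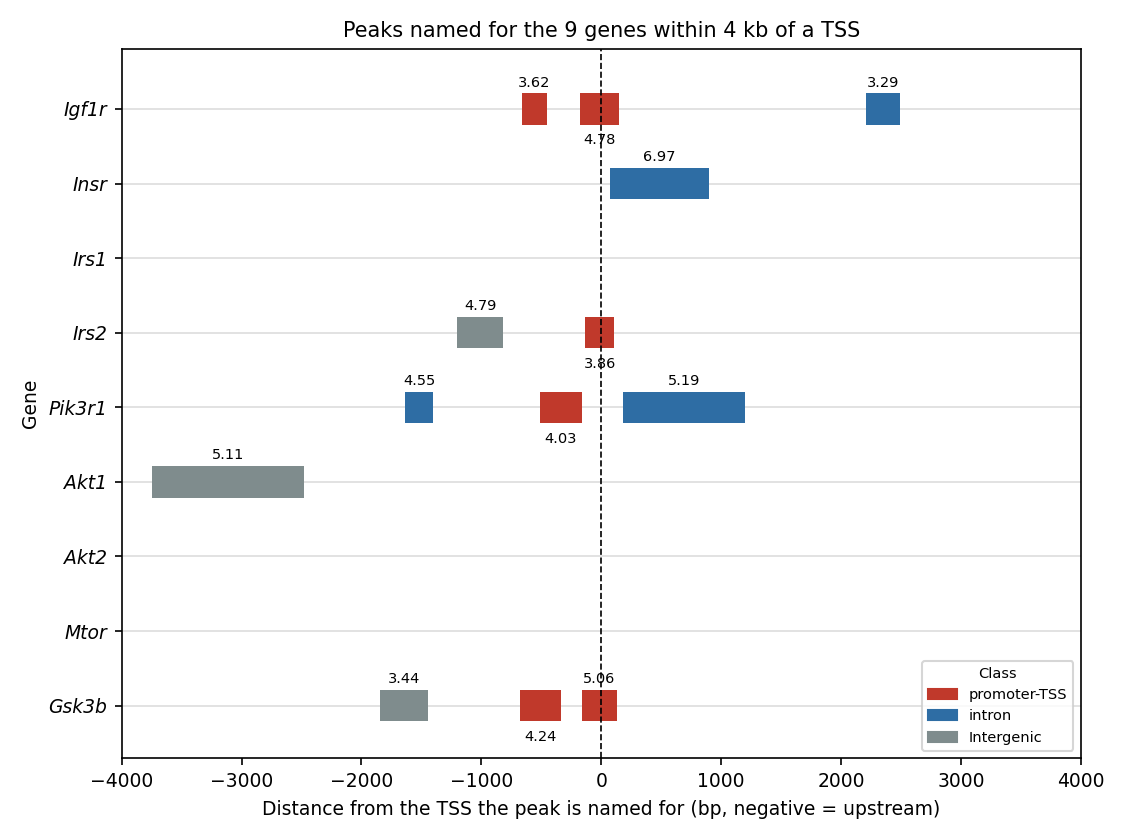
Peaks named for the 9 genes within 4 kb of the TSS they are named for, drawn to scale as bars of the peak's width centred at its distance from that TSS (bp, negative is upstream), coloured by class, with fold enrichment as numbers. For Pik3r1 the bar at -1519 bp is measured from the inner TSS and the others from the outer one, Igf1r, Irs2 and Gsk3b have a bar across the TSS, and Irs1, Akt2 and Mtor have no bar in this range.

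The wider pathway also held many genes with a peak. The role groups with the highest shares were PI3-kinase subunits and lipid phosphatases for any peak (10 of 11) and receptors, adaptors and their inhibitors for a promoter peak (5 of 12). Of 87 other pathway genes, 48 had a peak (55.2%, 44.1 to 65.9%) and 22 a promoter-TSS peak (25.3%, 16.6 to 35.7%), read against the same backgrounds of 26.5% and 9.68%. Their 157 peaks had a median fold enrichment of 4.09, against 4.13 over all peaks. A fold enrichment of at least 6 was reached by 5 of the 87 genes, and the background was 4.10%.

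Among ligands and binding proteins, 4 of 12 genes had a peak. Igfbp4, which binds and sequesters IGFs, was led by 6.43-fold at its promoter (chromosome 10, 86949712 to 86950323). Igf2r, which clears IGF2, had 5.80-fold in intron 1 and a promoter peak of 3.86-fold. Igf1 and Igf2, the genes of the IGFs themselves, had no peak, nor did Igfbp1.

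Among receptors, adaptors and their inhibitors, 8 of 12 had a peak. The guanine nucleotide exchange factor Sos1, which links receptors to RAS, had 6.59-fold in intron 10 (chromosome 6, 3134990 to 3135841) and a promoter peak of 4.10-fold. The adaptor Sh2b1 had a promoter peak of 5.58-fold. Promoter peaks were also present at the adaptors Shc1 (4.10-fold) and Gab1 (3.86-fold) and at Socs3, an inhibitor of cytokine and insulin signals (3.11-fold). Grb14, Grb2 and Insrr had none of any class.

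Among PI3-kinase subunits and lipid phosphatases, 10 of 11 had a peak, and the exception was Pik3ca, the catalytic subunit p110α. Pik3c2a had a promoter peak of 5.74-fold. The promoter peaks of the phosphatase Inppl1 and of the regulatory subunits Pik3r3 and Pik3r2 were weaker, at 4.16, 3.31 and 3.28-fold.

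Among AKT and its regulators, 3 of 7 had a peak. Ppp2r5a, a regulatory subunit of protein phosphatase 2A, had 5.89-fold 27.8 kb upstream and a promoter peak of 3.62-fold. Ppp2ca, its catalytic subunit, had 4.16-fold 2761 bp upstream, and the AKT phosphatase Phlpp1 had a promoter peak of 3.18-fold. Pdpk1, which encodes the kinase that activates AKT, and Phlpp2 had no peak.

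Of the mTOR complexes and the TSC complex that restrains them, 6 of 12 genes had a peak. Rheb, the small GTPase that activates mTORC1, had a peak of 6.48-fold 432 bp past its start site, in intron 1 (chromosome 4, 6827499 to 6828223). Akt1s1, an inhibitor of mTORC1 that AKT phosphorylates, had the only promoter peak of this group, at 5.90-fold. The core subunit genes Mlst8 and Rptor and the mTORC2 subunit gene Mapkap1 had no peak, as did Tsc1 and Tsc2, which were named here after their values were seen.

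Among targets of mTORC1 and AKT, 8 of 13 had a peak and 1 a promoter peak, where the backgrounds were 26.5% and 9.68%. The promoter peak was that of Slc2a4, the insulin-responsive glucose transporter, at 3.38-fold. Tbc1d1, which controls the movement of that transporter, had 5.92-fold 819 bp past its start site, in intron 1. Gsk3a, the paralogue of Gsk3b, had 5.33-fold 1267 bp upstream. Eif4b, Eif4e and Gys1 had no peak.

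Among genes that bring amino acid and stress signals to mTORC1, 9 of 20 had a peak and 7 a promoter peak. Ddit4 and Castor1 in this group had the strongest peaks of the 87 genes, while the group's median strongest fold, 4.03, was the lowest of the 7 role groups, against 4.16 to 5.73 in the others. Ddit4, a stress-induced inhibitor of mTORC1, had 19 peaks, led by 11.0-fold 19.1 kb upstream (chromosome 20, 29528455 to 29532417), which ranked 12 of 28706. Its promoter peak had 6.52-fold. Castor1, an arginine sensor, had 7.89-fold 2100 bp upstream of its TSS and a promoter peak of 5.48-fold. The annotation classes the upstream peak as a transcription termination site, which at that place is not the end of Castor1. Promoter peaks of Lamtor3 (4.19-fold), Sesn3 (4.03-fold), Lamtor2 (3.86-fold), Flcn (3.50-fold) and Sesn1 (3.12-fold) were weaker. The Lamtor genes encode parts of the lysosomal platform of mTORC1 and the sestrins are inhibitors of it. Ddit4l, Depdc5 and Fnip1 had no peak.

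**Figure D4:**
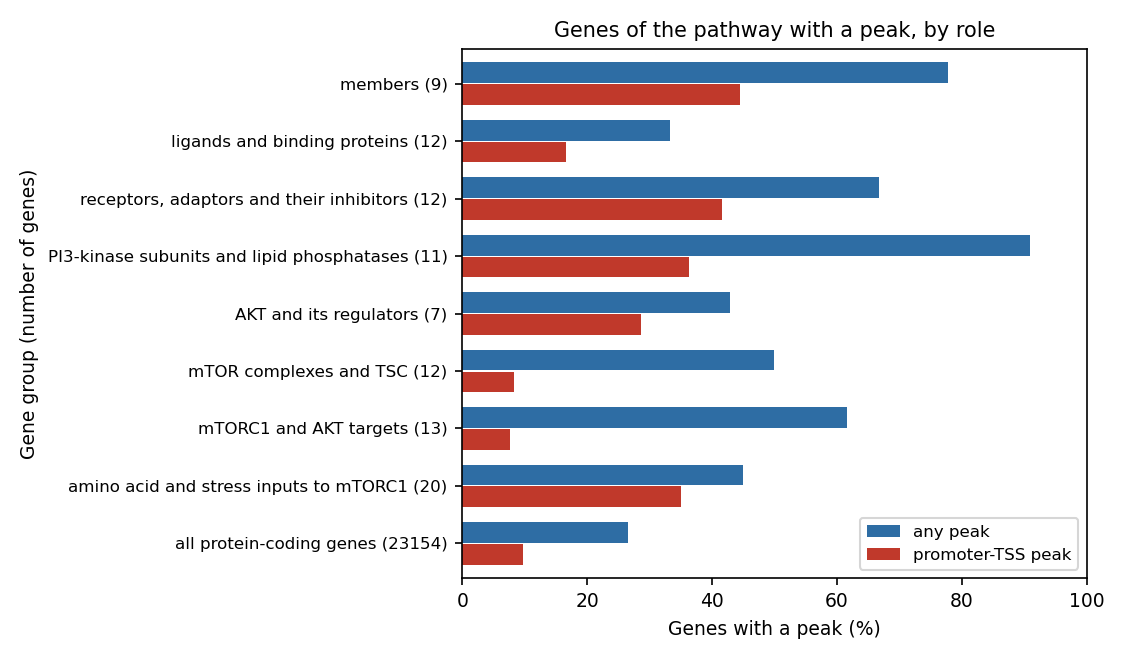
Share of genes (%) with any peak (blue) and with a promoter-TSS peak (red), for the 9 members, for 7 groups of other pathway genes and for all 23154 coding genes, with the number of genes in brackets. PI3-kinase subunits and lipid phosphatases have the highest share with any peak, 10 of 11 genes. The groups of mTOR complexes (12 genes) and of mTORC1 and AKT targets (13 genes) have 1 promoter peak each. The background is 9.68% of coding genes.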

How the data were processed

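The labels list a ChIP library and its input library of myocardium, and the deposited peak list and annotation of the ChIP library were analysed. Per the submitters' processing notes, reads were handled on build rn6 with Bowtie2, deepTools, FastQC, HOMER, MACS2, SAMtools and Trim Galore, listed without order. Versions, and whether the input served as background of the call, are not given in the sources used here. Fold enrichment (a ratio), −log10 p and −log10 q are the authors' values, per the file headers, used to describe and rank peaks within this list. The deposited score is the deposited −log10 q multiplied by 10, with decimals dropped. A path in the annotation header names a call at q 0.05.

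Peaks were joined by name and counted per gene name, distances are HOMER's from peak centre to TSS, and coordinates are 1-based. Counts were made in Python 3.11.15 with pandas 2.3.3, and intervals with SciPy 1.17.1. Depth is unknown, since the files give no totals. No test was possible with 1 library. The functions were tested on simulated data. Of 8094 gene names in the annotation, 6224 were current symbols in the GRCr8 gene table, which served for names and gene order. Of the 87 other pathway genes, 86 were in that table as coding genes. All members were named, and of each role group the 2 genes with the strongest peak, those with a promoter peak and up to 3 without a peak, and a few genes that these rules pick are not reported here. Members, lists and rules were chosen with earlier results of these data known.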

Additional observations from a re-analysis of the deposited data

How the results depend on the processing

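Counts were recomputed for peaks with −log10 q of at least 5, for fold enrichment of at least 4, for centres within 100 kb of the TSS, with peaks at gaps of up to 1000 bp merged, with older symbols, with a window of 3000 bp, and, added after the data were seen, with peaks inside a transcript counted also for its gene. Of the counts over the 9 genes and over the other pathway genes, only the first setting moved any by over 1.5 times. Counting host transcripts could not change the number of genes with any peak, 7 members and 48 other pathway genes. A transcript was paired with a gene only where a peak already carried that gene's name, so this setting does not check those 2 counts. At −log10 q of at least 5, 10 of the 23 member peaks were left, with a median fold enrichment of 5.09. They were named for 6 members, with Igf1r lost, and 14.1% of coding genes had a peak. Under it 1 member, Gsk3b, kept a promoter peak (4.15% of coding genes), 3 had a peak within 1000 bp of the TSS (7.89%), and 29 other pathway genes had any peak. Merging gave 16 peaks, with Igf1r at 2 and Irs2 and Gsk3b at 1, and counting host transcripts gave 32, with Igf1r at 12 and its strongest at 8.81-fold. No paired analysis was possible because 1 library was analysed. Depth limits every absence of a peak.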

Other observations

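Peaks that carry other names lay unevenly around Irs2. On one side its coding neighbours Col4a1 and Col4a2, which encode the chains of basement membrane collagen type IV, had 40 and 25 peaks. The strongest Col4a1 peak had 7.24-fold enrichment in intron 2 (chromosome 16, 83569706 to 83571636), 253 kb from the Irs2 TSS, and on this side 0 peaks with another name lay within 100 kb. On the other side, where the next coding neighbours Myo16 and Tnfsf13b had no peak, 11 peaks lay 30.7 to 96.3 kb from the Irs2 TSS, in the direction of the gene, and were named for the gene model AABR07026565.2. Their fold enrichment ran from 3.28 to 5.92, against 3.86 and 4.79 for the peaks named Irs2. The strongest was at 83918041 to 83918579.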
